A study of Mus musculus with 7 samples.

Results

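Chemokines of the liver were followed in RNA-seq counts from 7 mice. The members were Ccl2, Ccl5, Ccl6, Ccl9, Cxcl1, Cxcl9, Cxcl10, Cxcl12 and Cxcl13, taken as the 9 rows of the count table with exactly those gene symbols, out of 24421 genes in the table. The first group held 4 C57BL/6 mice labelled as hepatocyte knockouts of Prkci, the gene of an atypical protein kinase C: both Prkci alleles were floxed and an Alb-Cre transgene, which the albumin promoter drives in hepatocytes, was present. The control group held 3 C57BL/6 mice with floxed Prkci and no Cre. Every animal of either group had been given the liver carcinogen diethylnitrosamine (DEN) at 25 mg/kg intraperitoneally at 2 weeks of age, was fed a diet with 60% fat for 32 weeks from the age of 4 weeks, and was 36 weeks old at sampling. Whether tumour or surrounding liver was sampled is not stated, and no untreated animals were compared here. All p-values rest on the spread among 7 libraries, which the labels do not describe further.

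Chemokines are small secreted proteins that direct the movement of leukocytes through G protein-coupled receptors. In liver they are made by hepatocytes, Kupffer cells (the resident macrophages), sinusoidal endothelial cells, stellate cells and recruited leukocytes, and many of their genes are induced through NF-kappaB or through interferon. Atypical receptors bind chemokines without conventional G protein signalling, and proteases such as Dpp4 cut their ends and change their activity.

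The libraries labelled knockout held 28695455 to 49203615 reads in genes and the control libraries 23807580 to 26556486, so that 1 read was worth 0.0187 to 0.0506 CPM, the read count per gene after TMM scaling and division by library size. Prkci had 30.0, 30.7, 28.2 and 28.7 CPM in the libraries labelled knockout, against 23.3, 20.4 and 27.7 CPM in the controls (log2 fold change 0.30, SE 0.12, edgeR adjusted p = 0.214), and was thus not lower there. A count over the whole gene does not check the deletion of a floxed part, so the groups are named by their labels throughout. Hepatocyte markers (Alb, Apoa1, Ttr, Cps1 and Hnf4a) summed to 51007 to 65241 CPM in the libraries labelled knockout and 68270 to 98726 CPM in the controls, with 0 of the 5 past the edgeR test, 1 lower at an unadjusted p under 0.05 and 1 called by DESeq2 (Apoa1). As shares of gene reads, without TMM scaling, these sums overlapped. They were 5.45% to 7.09% in the libraries labelled knockout and 5.84% to 8.19% in the controls. Control 3 stood apart from controls 1 and 2 in the sum of 18 acute phase genes. That sum was 31809 to 41853 CPM in the libraries labelled knockout, against 174027, 172851 and 32825 CPM in controls 1, 2 and 3. Without control 3, edgeR called 17 of the 18 lower, where 9.32% of 14056 genes were called, and their median log2 fold change was -2.12. Against control 3 alone that median was 0.19. The chemokines that turn on control 3 are therefore also given without it and against it alone. Control 3 was singled out by its values, not by the labels.

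Promoter sequence was at hand in RefSeq (GRCm38.p6) for 7 of the 9 members, as the 250 bases before the annotated start. The 3 printed are of CXC chemokines whose levels split the control libraries. Cxcl13 also split the controls, but it held no match and is not printed. All 7 were searched on both strands for the interferon-stimulated response element core GAAANNGAA, the gamma-activated site TTCNNNGAA and the kappaB motif. Capitals mark the matches.
Cxcl10, chr5:92348890-92349139, minus strand: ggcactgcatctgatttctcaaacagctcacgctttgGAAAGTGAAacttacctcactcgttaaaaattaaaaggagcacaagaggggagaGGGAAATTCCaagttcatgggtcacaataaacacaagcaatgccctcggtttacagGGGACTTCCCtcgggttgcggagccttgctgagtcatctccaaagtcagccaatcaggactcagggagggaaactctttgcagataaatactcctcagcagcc
Cxcl9, chr5:92328080-92328329, minus strand: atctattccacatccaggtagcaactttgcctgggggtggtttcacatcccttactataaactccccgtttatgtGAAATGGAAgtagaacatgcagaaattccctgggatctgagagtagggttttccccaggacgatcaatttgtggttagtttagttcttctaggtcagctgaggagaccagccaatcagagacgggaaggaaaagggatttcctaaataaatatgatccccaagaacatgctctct
Cxcl1, chr5:90890995-90891244, plus strand: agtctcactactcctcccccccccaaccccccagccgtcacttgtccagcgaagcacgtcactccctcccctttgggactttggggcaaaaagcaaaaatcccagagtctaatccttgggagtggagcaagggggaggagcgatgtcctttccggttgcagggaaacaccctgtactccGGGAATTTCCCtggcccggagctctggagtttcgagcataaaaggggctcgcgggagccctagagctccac
The Cxcl10 stretch held the response element core at bases 213 to 205 before the start and kappaB matches at bases 159 to 150 and 103 to 94. The Cxcl9 stretch held the core at bases 175 to 167, and the Cxcl1 stretch held overlapping kappaB matches, at bases 71 to 62 on the printed strand and 70 to 61 on the other. Ccl9 had a kappaB match at bases 35 to 26, and these letters were not found in the windows of Ccl6, Cxcl12 and Cxcl13. Over 32851 mouse promoters of the same length, the response element core was present in 7.13%, the gamma-activated site in 7.02% and kappaB in 3.90%. A match describes the letters only.

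None of the 9 chemokines passed the edgeR quasi-likelihood test at an adjusted p of 0.05, against 302 of 13638 genes tested (2.21%). At an unadjusted p under 0.05 there were 2 with higher levels in the libraries labelled knockout (Ccl2 and Cxcl10) and 3 with lower levels (Ccl6, Cxcl1 and Cxcl12), where 18% of all genes met that rule. DESeq2 called 4 of them, Ccl2 and Cxcl10 higher and Ccl6 and Cxcl12 lower, against 7.68% of the genes it adjusted, and limma-voom called 0. The groups did not overlap for Ccl6, Cxcl10 and Cxcl12, 3 of 9, where 16.3% of all genes tested did not overlap. The median log2 fold change over the 9 was 0.30, beside -0.01 over all genes tested. All 9 passed the filter on low counts.

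**Figure D1:**
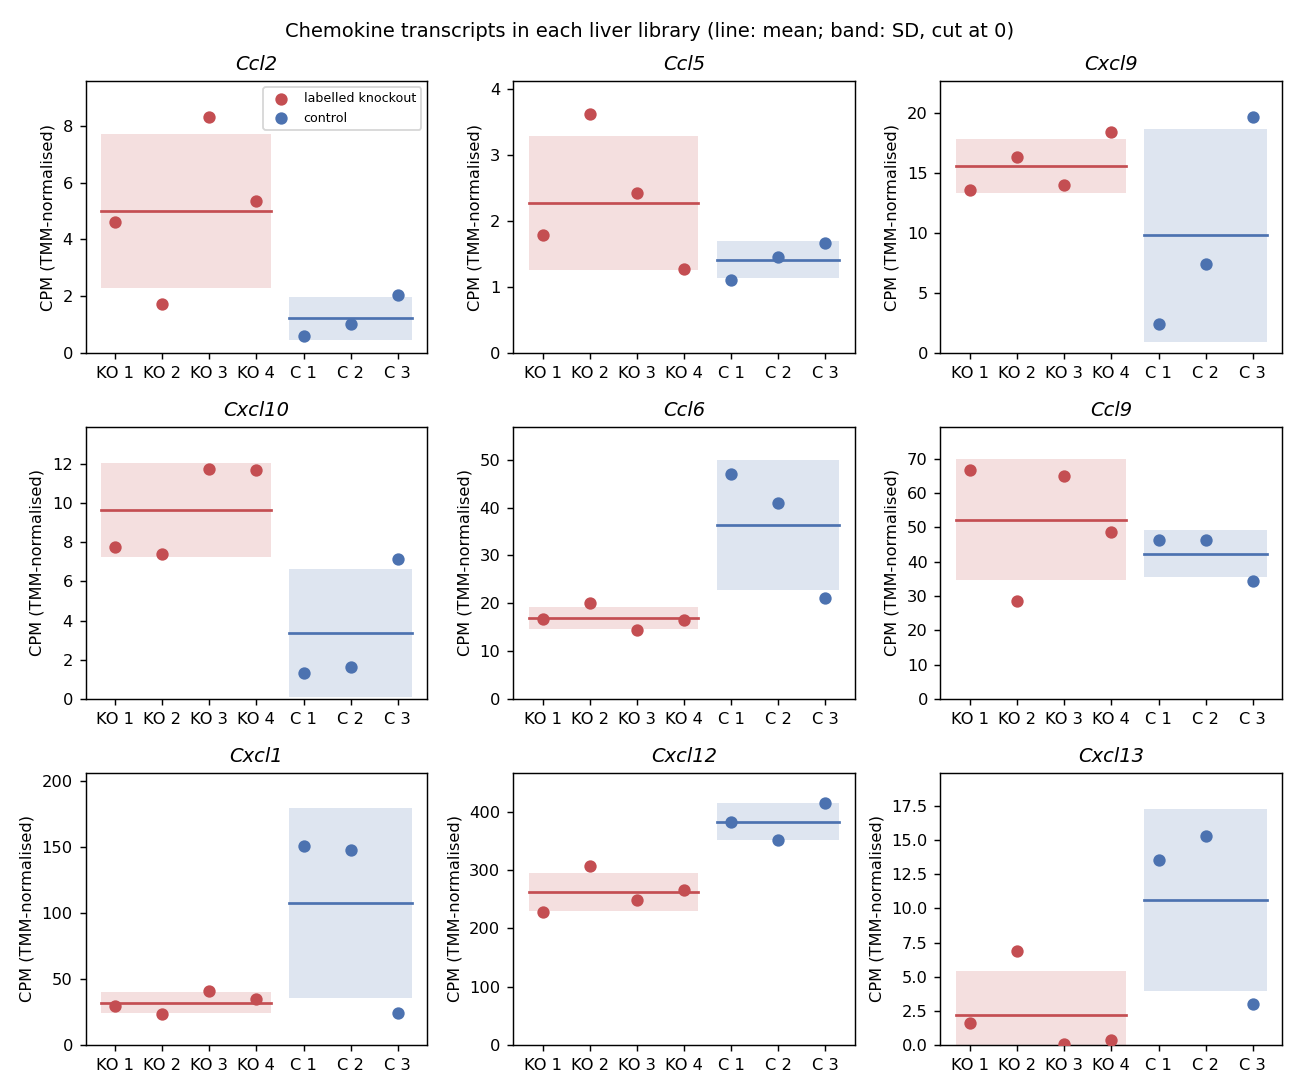
CPM (TMM-normalised, linear axis from 0) of each chemokine in the 4 libraries labelled knockout (KO) and the 3 controls (C); points are libraries, the line is the group mean and the band its SD. Cxcl12 and Ccl6 are lower and Cxcl10 higher in every library labelled knockout, while control 3 lies far from the other controls for Cxcl1, Cxcl9, Cxcl10 and Cxcl13.

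The homeostatic chemokine Cxcl12 lies on chr6:117168535-117181367 (GRCm38, GENCODE M21, plus strand) and holds leukocytes and progenitors in tissue through Cxcr4. It had 229, 307, 248 and 266 CPM in the libraries labelled knockout, against 383, 352 and 416 CPM in the controls. All 4 libraries labelled knockout lay below all 3 controls, and the controls lay close together. The log2 fold change was -0.55 (SE 0.13, edgeR adjusted p = 0.0662), so the difference missed the threshold; it passed without knockout 2 (-0.63, adjusted p = 0.0420) and without control 3. In bulk tissue, fewer cells of a type and less RNA per cell cannot be told apart. Sinusoidal endothelial markers, from cells that can make Cxcl12, summed to 433, 505, 377 and 449 CPM in the libraries labelled knockout and 598, 529 and 515 CPM in the controls; 0 of 7 passed the edgeR test, 3 of 7 had lower levels at an unadjusted p under 0.05, DESeq2 called 1 (Kdr) and their median log2 fold change was -0.35. Stellate cell markers summed to 271, 233, 279 and 270 CPM in the libraries labelled knockout and 244, 272 and 371 CPM in the controls. Of those 7, 0 passed the edgeR test, and 1 was higher and 1 lower at an unadjusted p under 0.05. DESeq2 called Lrat lower, and the stellate median log2 fold change was -0.20. The part of either cell type in the Cxcl12 values was not tested. The absence of overlap for Cxcl12 and for the endothelial sums depended on the TMM factors, which were 0.830 and 0.855 for controls 1 and 2 and 1.06 to 1.09 for the other libraries. As shares of gene reads the endothelial sums overlapped, at 0.0401% to 0.0539% in the libraries labelled knockout and 0.0452% to 0.0545% in the controls. Scaled by library size alone, Cxcl12 had 249, 327, 264 and 286 CPM in the libraries labelled knockout and 318, 301 and 440 CPM in the controls, with a log2 fold change of -0.32 (edgeR adjusted p = 0.285) while the median of all genes was 0.22.

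Its signalling receptor Cxcr4 had 4.45, 5.03, 3.89 and 3.26 CPM in the libraries labelled knockout, against 2.89, 1.64 and 4.09 CPM in the controls (log2 fold change 0.53, edgeR adjusted p = 0.420), and the groups overlapped. Ackr3, the atypical receptor that removes Cxcl12, had 2.88, 0.904, 1.37 and 0.746 CPM in the libraries labelled knockout and 1.32, 0.0469 and 1.14 CPM in the controls (log2 fold change 0.82, edgeR adjusted p = 0.649). Dpp4, which cuts the amino terminus of Cxcl12, had 168, 174, 129 and 160 CPM in the libraries labelled knockout and 147, 181 and 180 CPM in the controls (log2 fold change -0.10, edgeR adjusted p = 0.744). The groups overlapped for both.

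Ccl6 and Ccl9 are rodent CC chemokines that act on Ccr1 and are made by myeloid cells. They are neighbours on the minus strand of chromosome 11, Ccl9 at chr11:83572919-83578636 and Ccl6 at chr11:83587882-83593087. Ccl6 had 16.7, 20.1, 14.5 and 16.5 CPM in the libraries labelled knockout, against 47.1, 40.9 and 21.2 CPM in the controls. Every library labelled knockout lay below every control, although knockout 2 and control 3 were close. The log2 fold change was -1.10 (SE 0.25, edgeR adjusted p = 0.0623); without control 3 it was -1.38 (adjusted p = 0.000364) and against control 3 alone -0.32 (adjusted p = 0.591). Ccl9 had 66.8, 28.7, 65.1 and 48.6 CPM in the libraries labelled knockout and 46.4, 46.4 and 34.4 CPM in the controls. The libraries labelled knockout spanned the whole control range (log2 fold change 0.30, SE 0.29, edgeR adjusted p = 0.646). Their receptor Ccr1 had 1.36, 0.692, 1.90 and 1.14 CPM in the libraries labelled knockout and 1.87, 0 and 0.748 CPM in the controls, with overlap. The 2 genes nearest to Ccl6 across the 7 libraries, by the root mean square difference of centred log2 CPM, were Fn1 (0.0978) and Bbs9 (0.117), and those nearest to Ccl9 were Plscr1 (0.122) and Tagln2 (0.151). Fn1, which encodes fibronectin, had 2275, 2237, 1903 and 2066 CPM in the libraries labelled knockout and 5469, 5443 and 2576 CPM in the controls.

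Cxcl1 (chr5:90891241-90893115, plus strand) attracts neutrophils through Cxcr2. It had 29.4, 23.2, 41.2 and 34.8 CPM in the libraries labelled knockout, against 151, 148 and 24.5 CPM in the controls. Control 3 lay among the libraries labelled knockout, and controls 1 and 2 lay far above every other library. The log2 fold change was -1.75 (SE 0.62, edgeR adjusted p = 0.228); without control 3 it was -2.22 (adjusted p = 0.000370), and against control 3 alone it turned round to 0.39 (adjusted p = 0.659). The nearest genes were Syne4 (0.211) and the acute phase gene Hp (0.227), which encodes haptoglobin. Hp had 5127, 5376, 7809 and 5624 CPM in the libraries labelled knockout and 22941, 20780 and 4850 CPM in the controls. It was picked from 10927 genes for its likeness to Cxcl1, so the same split of the controls follows from that choice.

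Cxcr2 had 0.355, 1.20, 0.948 and 0.696 CPM in the libraries labelled knockout, against 4.30, 2.44 and 1.96 CPM in the controls. The groups did not overlap (log2 fold change -1.86, SE 0.46, edgeR adjusted p = 0.0677), and the difference passed the test without control 3 (-2.09, adjusted p = 0.0256); against control 3 alone it was -1.30 (adjusted p = 0.519). The 8 neutrophil markers in the table summed to 14.1, 16.6, 13.0 and 13.0 CPM in the libraries labelled knockout and 357, 84.7 and 15.7 CPM in the controls. None of the 7 tested passed the edgeR test, 6 of 7 had lower levels at an unadjusted p under 0.05, and DESeq2 called 5. Without control 3, edgeR called 7 of 8 lower, where 9.32% of all genes were called, and their median log2 fold change was -4.47. Against control 3 alone that median was -0.09. Among the defining genes, Ngp was at 0 in libraries knockout 1, 3 and 4 and in control 3 and at 61.5 and 14.6 CPM in controls 1 and 2, and Camp was at 0 in libraries knockout 1 and 4 and in control 3. S100a8 had 1.89 to 3.50 CPM in the libraries labelled knockout and 98.1, 21.0 and 3.35 CPM in the controls. DESeq2 called neither Ngp (adjusted p = 0.178) nor Camp (adjusted p = 0.0605). Csf3r, also in this list, differed little between the groups (DESeq2 log2 fold change -0.22, adjusted p = 0.710). The part of these cells in the Cxcl1 and Cxcr2 values was not tested.

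Cxcl9 and Cxcl10 are interferon-inducible ligands of Cxcr3, the receptor of activated T and NK cells, and lie near each other on the minus strand of chromosome 5, at chr5:92321347-92328079 and chr5:92346638-92348889. Cxcl10 had 7.78, 7.39, 11.7 and 11.7 CPM in the libraries labelled knockout, against 1.32, 1.64 and 7.12 CPM in the controls. All 4 lay above all 3 controls, but control 3 came within a small step of the lowest. The log2 fold change was 1.49 (SE 0.59, edgeR adjusted p = 0.245), without control 3 it was 2.69 (adjusted p = 0.000627) and against control 3 alone 0.43 (adjusted p = 0.658). Exons of Cxcl10 overlap those of Art3 on the other strand, with 2.47% of its 75-base windows shared; Art3 itself had 0.991 to 1.81 CPM in the libraries labelled knockout and 0.506 to 2.56 CPM in the controls. The nearest genes were Tpm2 (0.161) and Acaa1b (0.192).

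Cxcl9 had 13.6, 16.3, 14.0 and 18.4 CPM in the libraries labelled knockout, against 2.43, 7.41 and 19.6 CPM in the controls. The 4 libraries labelled knockout lay together and inside the control range, with controls 1 and 2 below them and control 3 above. Its log2 fold change was 0.65 (SE 0.61, edgeR adjusted p = 0.648), without control 3 it was 1.65 (adjusted p = 0.0463) and against control 3 alone it was -0.34 (adjusted p = 0.591). The nearest genes were Car1 (0.242) and Cyr61 (0.290). Their receptor Cxcr3 had 0.280, 0.559, 0.818 and 0.746 CPM in the libraries labelled knockout and 0.506, 0.234 and 0.498 CPM in the controls (log2 fold change 0.52, edgeR adjusted p = 0.697), and the groups overlapped. T and NK cell markers, 12 of 13 in the table, summed to 7.31 to 11.3 CPM in the libraries labelled knockout and 5.59 to 10.2 CPM in the controls, with 0 of 10 tested past the edgeR test, 2 of 10 higher at an unadjusted p under 0.05, and none called by DESeq2. Ifng, the inducer of both ligands, was at most 0.0798 CPM in the libraries labelled knockout and 0.152 CPM in the controls and was too low to test.

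Ccl2 (chr11:82035571-82037453, plus strand) recruits Ccr2-bearing monocytes. It had 4.62, 1.73, 8.31 and 5.37 CPM in the libraries labelled knockout, against 0.607, 1.03 and 2.06 CPM in the controls. Libraries knockout 1, 3 and 4 lay above every control, and knockout 2 lay inside the control range. Its log2 fold change was 1.99 (SE 0.58, edgeR adjusted p = 0.120). It passed the test without knockout 2 (2.27, adjusted p = 0.0278) and without control 3 (2.59, adjusted p = 0.0489), and was 1.27 against control 3 alone. The nearest genes were Gsn (0.302), which encodes the actin-severing protein gelsolin, and Kbtbd11 (0.318).

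Ccr2 had 17.9, 7.98, 13.0 and 13.4 CPM in the libraries labelled knockout, against 10.5, 6.10 and 7.37 CPM in the controls (log2 fold change 0.72, SE 0.28, edgeR adjusted p = 0.218). As with Ccl2, knockout 2 was the library labelled knockout that lay inside the control range. Markers of recruited monocytes and macrophages summed to 128, 82.8, 135 and 91.9 CPM in the libraries labelled knockout and 121, 79.0 and 57.3 CPM in the controls. Of the 8, 0 passed the edgeR test, 2 were higher and 3 lower at an unadjusted p under 0.05, and DESeq2 called 1 higher (Gpnmb) and 3 lower (Ly6c2, Chil3 and Itgam). The monocyte marker Ly6c2 had 0.944 to 1.41 CPM in the libraries labelled knockout and 1.07 to 5.01 CPM in the controls (log2 fold change -1.53, edgeR adjusted p = 0.121), and the log2 fold changes of Chil3 and Itgam were -2.86 and -1.34. Gpnmb, a marker of lipid-laden macrophages, had 43.0, 25.7, 51.8 and 30.1 CPM in the libraries labelled knockout and 1.82, 3.42 and 14.1 CPM in the controls (log2 fold change 2.51, edgeR adjusted p = 0.162). The part of these cells in the Ccl2 values was not tested. Of the 6 general leukocyte markers, which summed to 115 to 159 CPM in the libraries labelled knockout and 118 to 173 CPM in the controls, 0 passed in edgeR, 0 had an unadjusted p under 0.05 and DESeq2 called 0.

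Ccl5 (chr11:83525778-83530518, minus strand) is made by T and NK cells among others and acts on Ccr1 and Ccr3 among other receptors. It had 1.79, 3.62, 2.42 and 1.27 CPM in the libraries labelled knockout, against 1.11, 1.45 and 1.67 CPM in the controls. Knockout 4 lay inside the control range and the other 3 above it (log2 fold change 0.68, SE 0.40, edgeR adjusted p = 0.412), and no alternative called it. Ccr3, below the filter, had 0.224, 0.133, 0.131 and 0.870 CPM in the libraries labelled knockout and 0.202, 0 and 0.0356 CPM in the controls. The genes nearest to Ccl5 were Plk3 (0.189) and Zbed6 (0.191).

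Cxcl13 (chr5:95956951-95961068, plus strand) draws B cells to lymphoid follicles through Cxcr5. It varied most of the 9: it had 1.57, 6.89, 0.0327 and 0.348 CPM in the libraries labelled knockout, against 13.5, 15.3 and 3.03 CPM in the controls. The value of knockout 3 rests on 1 read, and knockout 2 lay above control 3. It had a log2 fold change of -2.25 with an SE of 1.35 (edgeR adjusted p = 0.450), and no alternative called it. Without control 3 the log2 fold change was -2.70 (edgeR adjusted p = 0.358), and against control 3 alone it was -0.45. Cxcr5 was at 0.0981 to 0.671 CPM in the libraries labelled knockout and 0.188 to 0.427 CPM in the controls. B and plasma cell markers summed to 14.7 to 16.8 CPM in the libraries labelled knockout and 9.38 to 21.4 CPM in the controls, and of the 7 tested 0 passed the edgeR test, 1 (Mzb1) was lower at an unadjusted p under 0.05, and DESeq2 called that 1.

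The genes nearest to Cxcl13 were Marco (0.740) and Timd4 (0.926), scavenger and phosphatidylserine receptors of resident Kupffer cells. Both differences are larger than those of the nearest genes of the other members. Cxcl13 itself also varied most (SD of log2 CPM 2.73), so these differences do not rank likeness between members. Marco had 12.9, 106, 1.93 and 2.78 CPM in the libraries labelled knockout and 56.9, 106 and 20.1 CPM in the controls. Timd4 had 4.06, 14.5, 0.687 and 1.34 CPM in the libraries labelled knockout and 11.4, 25.5 and 9.72 CPM in the controls. Libraries knockout 3 and 4 were the lowest and control 2 the highest for Cxcl13 and Timd4. For Marco, knockout 3 and 4 were the lowest. Both genes were picked for such likeness. The 7 Kupffer cell markers summed to 580, 928, 395 and 477 CPM in the libraries labelled knockout and 1261, 1342 and 718 CPM in the controls, with a median log2 fold change of -1.05. Of the 7, 1 fell in the edgeR test, the complement gene C6 (207, 216, 194 and 177 CPM in the libraries labelled knockout, 530, 490 and 295 CPM in the controls, log2 fold change -1.14, adjusted p = 0.0219), a gene that hepatocytes also express. C6 passed in 2 of the 7 fits that leave out 1 library, and in limma-voom (adjusted p = 0.0384). At an unadjusted p under 0.05, 3 of the 7 markers were lower, and DESeq2 called only C6 (adjusted p = 6.69e-07). The part of Kupffer cells in the Cxcl13 and Ccl6 values was not tested.

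**Figure D2:**
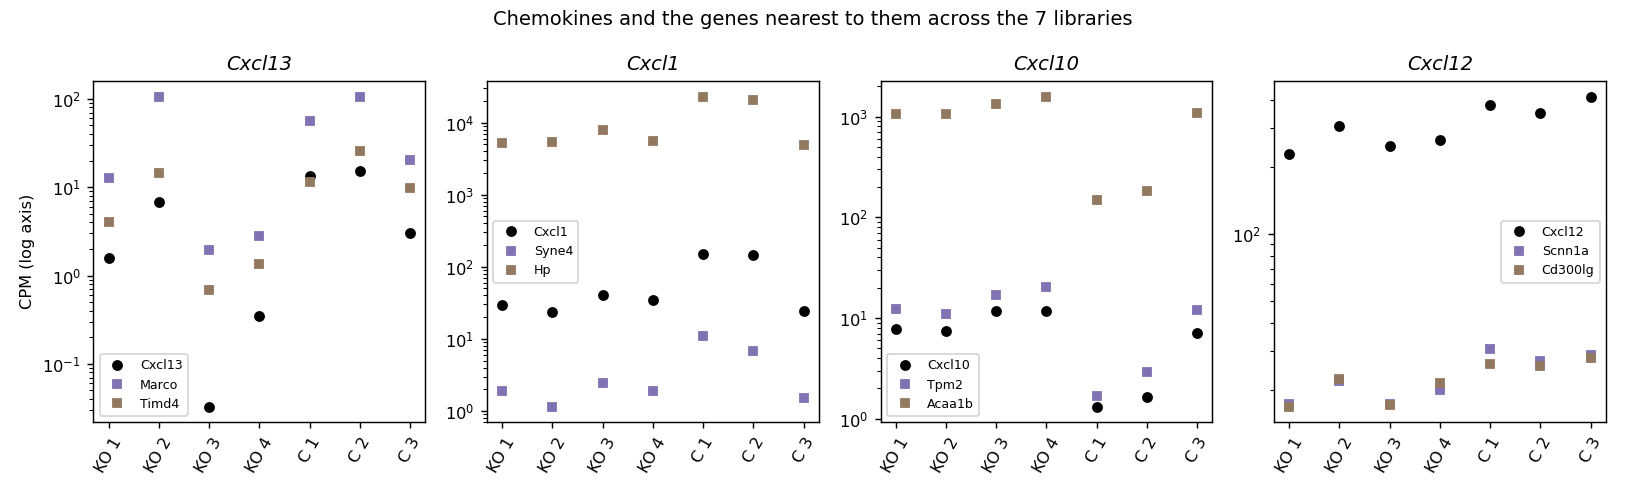
CPM on a log axis of Cxcl13, Cxcl1, Cxcl10 and Cxcl12 (black circles) and of the 2 genes nearest to each (coloured squares) in the 4 libraries labelled knockout (KO) and 3 controls (C). Marco and Timd4 are low in knockout 3 and 4 together with Cxcl13, and Hp shares with Cxcl1 the high values of controls 1 and 2. The nearest genes were picked for such likeness in these same libraries.

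**Figure D3:**
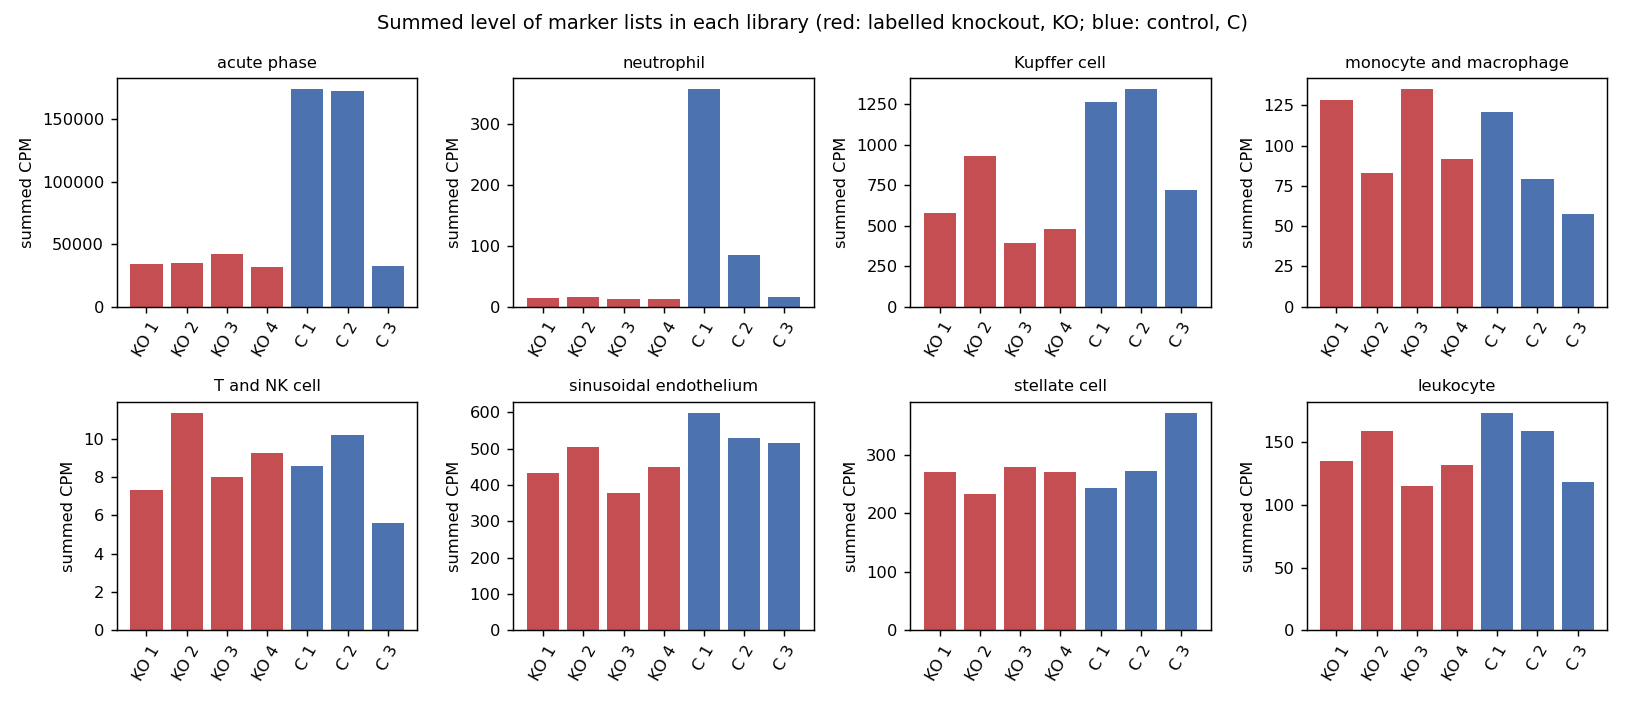
Summed CPM of the acute phase list and of 7 marker lists (bars) in each library labelled knockout (KO) and control (C), on axes from 0. The neutrophil sum is 357 and 84.7 CPM in controls 1 and 2 and at most 16.6 CPM in the libraries labelled knockout, with 15.7 CPM in control 3.

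**Figure D4:**
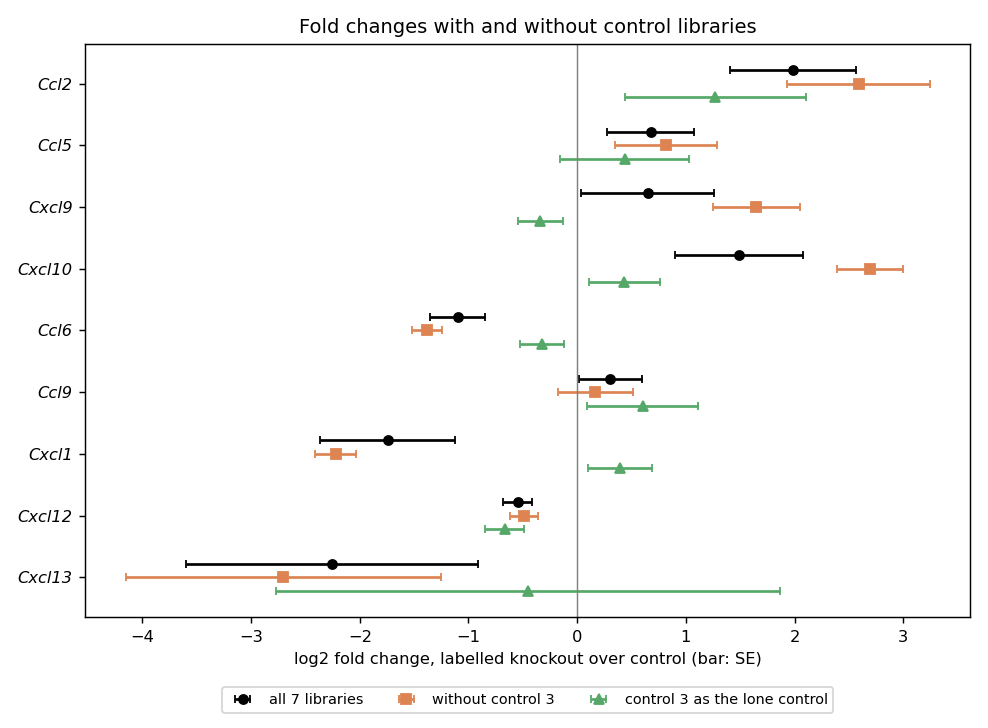
Log2 fold change, libraries labelled knockout over control, with its SE for each chemokine in 3 edgeR fits: all 7 libraries, all but control 3, and control 3 as the lone control. The Cxcl1 and Cxcl9 values change sides of 0 when control 3 is the lone control, and Cxcl12 lies between -0.67 and -0.49 in all 3 fits.

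Without control 3, edgeR called 6 of the 9 chemokines, against 9.32% of 14056 genes: Ccl2, Cxcl9 and Cxcl10 rose in the libraries labelled knockout and Ccl6, Cxcl1 and Cxcl12 fell (Cxcl12 -0.49, adjusted p = 0.0474). Against control 3 alone it called 0 of the 9 and 0.0612% of 14709 genes, a fit that takes the lone control to vary like the other group. Leaving out any other library called at most 2 of the 9.

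Levels between genes were compared as CPM per kb of exon, a scale on which longer transcripts do not count more. In the libraries labelled knockout the order was Cxcl12 (32.1 ± 4.06), Ccl9 (17.2 ± 5.83), Cxcl1 (17.1 ± 4.08), Ccl6 (9.43 ± 1.29), Cxcl9 (5.16 ± 0.744), Ccl2 (4.40 ± 2.38), Cxcl10 (4.28 ± 1.06), Ccl5 (2.37 ± 1.05) and Cxcl13 (1.92 ± 2.77; SD, n = 4). The neighbours Cxcl12 and Ccl9, Cxcl1 and Ccl6, and Ccl6 and Cxcl9 did not overlap between libraries, and the other neighbours did. In the controls it was Cxcl1 (57.5 ± 38.5), Cxcl12 (46.9 ± 3.92), Ccl6 (20.3 ± 7.54), Ccl9 (13.9 ± 2.28), Cxcl13 (9.24 ± 5.78), Cxcl9 (3.26 ± 2.94), Cxcl10 (1.49 ± 1.45), Ccl5 (1.47 ± 0.294) and Ccl2 (1.08 ± 0.659; SD, n = 3), and only Cxcl12 and Ccl6 did not overlap. Cxcl12 has the longest exon union, 8.18 kb with its alternative ends, which lowers its value on this scale.

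**Figure D5:**
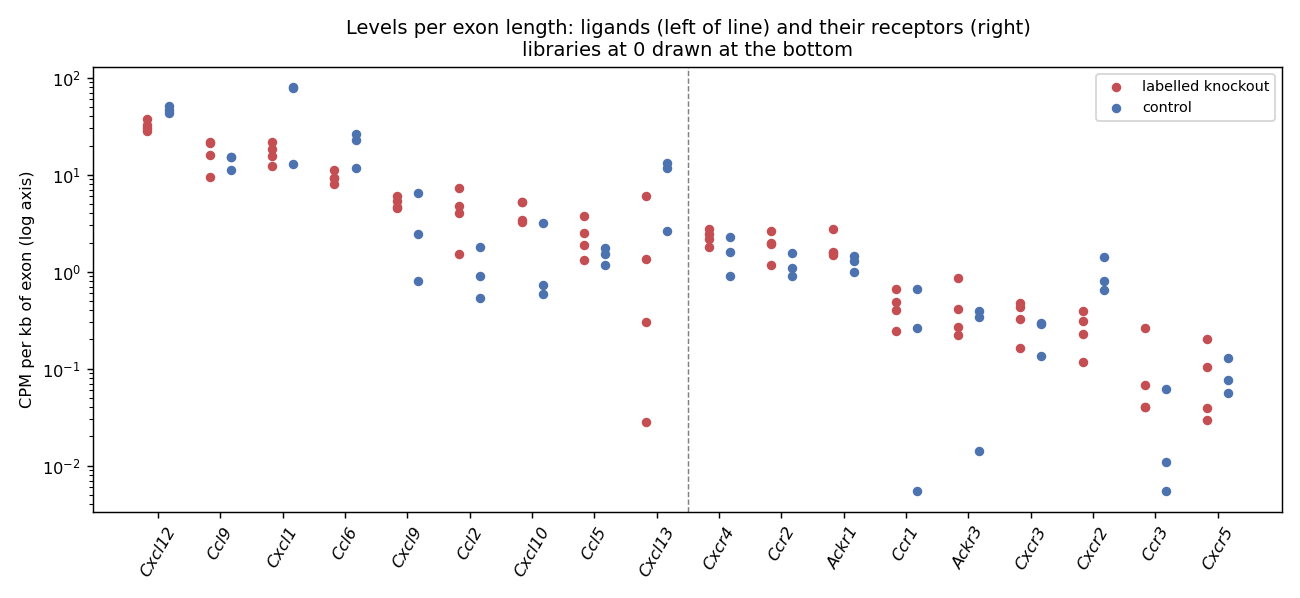
CPM per kb of exon on a log axis of the 9 chemokines (left of the dashed line) and 9 of their receptors (right), libraries labelled knockout beside controls; each point is a library, and libraries at 0 are drawn at the bottom. Cxcl12, Ccl9 and Cxcl1 lead in the libraries labelled knockout, and Cxcl1 spans a wide range in the controls.

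Of 29 other chemokine ligands in the table, 15 were tested and 1 passed, with a list median log2 fold change of 0.44. That gene was Cx3cl1 (fractalkine, the membrane-bound ligand of Cx3cr1), which had 3.65, 1.68, 4.61 and 3.75 CPM in the libraries labelled knockout, against 0.506, 0.375 and 0.534 CPM in the controls (log2 fold change 2.84, SE 0.42, edgeR adjusted p = 0.0158). All 4 lay above all 3 controls, control 3 included, and it passed in 3 of the 7 fits that leave out 1 library. It missed in limma-voom (adjusted p = 0.107) and against control 3 alone (2.67, adjusted p = 0.189). It also missed the threshold without control 1 (adjusted p = 0.0753), control 2 (0.0820), knockout 3 (0.0523) or knockout 4 (0.0504) in edgeR. Its receptor Cx3cr1 had 9.44, 4.02, 7.26 and 7.41 CPM in the libraries labelled knockout and 1.42, 3.66 and 5.09 CPM in the controls (log2 fold change 1.04, SE 0.42, edgeR adjusted p = 0.241), a gene named here after its values were seen. The most abundant of the list were Cxcl16, with 14.6 to 20.4 CPM in the libraries labelled knockout and 14.2 to 17.6 CPM in the controls (edgeR adjusted p = 0.517), and Cxcl14. Cxcl14 had 4.56, 4.26, 5.43 and 1.49 CPM in the libraries labelled knockout and 55.3, 40.3 and 1.67 CPM in the controls, so control 3 lay inside the range of the libraries labelled knockout (log2 fold change -3.04, edgeR adjusted p = 0.231). DESeq2 called it (adjusted p = 0.0454), and so did edgeR without control 3 (-3.61, adjusted p = 0.00762), while against control 3 alone its sign turned (1.23, adjusted p = 0.557).

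Of 18 chemokine receptors, 12 were tested and 0 passed in edgeR; 2 (Ccr2 and Cx3cr1) were higher and 2 (Cxcr2 among them) lower at an unadjusted p under 0.05, DESeq2 called 1 (Cxcr2) and limma-voom 0. None of the 5 atypical receptors passed either, with none at an unadjusted p under 0.05 and 0 called by DESeq2 and by limma-voom. The erythrocyte and venular receptor Ackr1 had 3.89, 2.21, 2.22 and 2.11 CPM in the libraries labelled knockout and 2.02, 1.83 and 1.39 CPM in the controls, without overlap (log2 fold change 0.59, edgeR adjusted p = 0.380). The scavenging receptor Ackr2, had 3.10 to 5.29 CPM in the libraries labelled knockout and 2.49 to 7.44 CPM in the controls (edgeR adjusted p = 0.692). Among 7 proteases that process chemokines, 1 passed: the neutrophil gelatinase Mmp9 fell to 0.561, 0.665, 1.15 and 0.795 CPM in the libraries labelled knockout, against 11.9, 3.38 and 2.28 CPM in the controls (log2 fold change -2.89, SE 0.57, edgeR adjusted p = 0.0396). Of the 7 fits that leave out 1 library it passed only in the one without control 3 (adjusted p = 0.00304, the others up to 0.131), and it missed in limma-voom (adjusted p = 0.106). DESeq2 called 3 of the 7: Mmp9 and the neutrophil collagenase Mmp8 lower and the gelatinase Mmp2 higher. Mmp2 had 2.34 to 6.06 CPM in the libraries labelled knockout and 1.32 to 2.25 CPM in the controls (log2 fold change 1.14, edgeR adjusted p = 0.132). Without control 1 the log2 fold change of Mmp9 was -1.84. The part of neutrophils or of other cells in the Mmp9 values was not tested. The sheddase gene Adam10, with Dpp4 the most abundant of the list, had 50.9 to 62.5 CPM in the libraries labelled knockout and 60.5 to 68.0 CPM in the controls (edgeR adjusted p = 0.435).

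The NF-kappaB and interferon lists gave few edgeR calls over all 7 libraries. Of 20 NF-kappaB factors and targets 19 were tested and 1 passed, the feedback inhibitor Tnfaip3, which had 18.1 to 24.0 CPM in the 4 libraries labelled knockout, against 15.0, 9.33 and 10.1 CPM in the controls (log2 fold change 0.85, SE 0.19, edgeR adjusted p = 0.0473). The groups did not overlap, and of the 7 fits that leave out 1 library it passed without control 1 or control 3 (adjusted p 0.0453 to 0.192 over the 7). It missed in limma-voom (adjusted p = 0.0681). At an unadjusted p under 0.05 there were 3 of the 19 higher, and DESeq2 called the same 3: Tnfaip3 and the non-canonical subunits Nfkb2 and Relb. Nfkb2 had 17.3 to 21.9 CPM in the libraries labelled knockout and 11.1 to 14.2 CPM in the controls, and Relb had 5.75 to 7.06 CPM in the libraries labelled knockout and 2.77 to 4.13 CPM in the controls. Neither overlapped between the groups, and both missed in edgeR (log2 fold change 0.61 for Nfkb2, adjusted p = 0.0558, and 0.90 for Relb, adjusted p = 0.0556). Of the most abundant, the TNF receptor Tnfrsf1a had 103, 101, 110 and 102 CPM in the libraries labelled knockout and 173, 157 and 85.4 CPM in the controls (log2 fold change -0.41, edgeR adjusted p = 0.341). It was called lower without control 3 (-0.67, adjusted p = 0.00253), and its sign turned against control 3 alone (0.28, adjusted p = 0.497). The NF-kappaB subunit Rela had a log2 fold change of 0.20 (edgeR adjusted p = 0.373). Of 25 interferon gamma pathway genes, 23 were tested and 0 passed in edgeR, with 1 higher and 2 lower at an unadjusted p under 0.05, 1 called by DESeq2 (Ciita) and 0 by limma-voom. Its most abundant genes were the GTPase gene Iigp1, at 380 to 698 CPM in the libraries labelled knockout and 542 to 590 CPM in the controls, and the kinase gene Jak1, at 167 to 189 CPM in the libraries labelled knockout and 182 to 227 CPM in the controls. Of 12 type I interferon targets 0 passed in edgeR, 2 were higher at an unadjusted p under 0.05, DESeq2 called 1 (Rsad2) and limma-voom 0, and the median log2 fold change was 0.29. The factors Stat2 and Irf7 were its most abundant genes, with log2 fold changes of -0.19 each (edgeR adjusted p = 0.350 for Stat2 and 0.418 for Irf7). Of 18 acute phase genes 2 fell, Itih4 (-1.73, edgeR adjusted p = 0.0436) and Saa3 (-0.61, edgeR adjusted p = 0.0472), and 15 were lower at an unadjusted p under 0.05. DESeq2 called 14 of the 18, and limma-voom called 0, with an adjusted p of 0.0867 for Itih4 and 0.0688 for Saa3. Each of the 2 passed only without control 3 among the 7 fits that leave out 1 library.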

How the data were processed

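Poly(A) RNA of frozen liver was made into directional libraries and read from 1 end over 75 nt on an Illumina NextSeq, per the labels' protocols. The authors deposited unnormalised read counts for each gene symbol, with 1 column per library. Per the submitters' processing notes the tools included STAR and DESeq2 and the build was mm10, with no roles stated; which program counted the reads, and on what annotation, is not given in the sources used here. The 2 entries that name no gene were left out: reads in no feature came to 8.62% to 16.3% of a library and ambiguous reads to 0.433% to 0.575%. No column was left out, and every pair of libraries within a group differed by more than counting noise (lowest chi-square over its degrees of freedom 38.8).

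Genes were filtered with filterByExpr (minimum count 10), scaled by TMM and tested with edgeR 4.0.16 (R 4.3.3), quasi-likelihood, robust, two-sided, all 4 libraries labelled knockout against all 3 controls, with Benjamini-Hochberg adjustment over all 13638 genes tested. The edgeR fit was tested on simulated counts with the same dispersion for all genes and no outlying control. DESeq2 1.42.0, limma 3.58.1 (voom) and the alternatives of the closing section were also run. Scaling by library size alone and thinning to equal depth were added after the data were seen. The weight given to the fits without control 3 and against it alone also followed from the values. CPM per kb used exon unions of GENCODE M21 (GRCm38); 75-base windows were matched between genes. Likeness was taken over 10927 genes with a mean log2 CPM above 1. Promoters came from RefSeq, GRCm38.p6.

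The members and lists were chosen with earlier results of these data known. The text names all members and their receptors (some items are not reported here), the genes past the threshold and the 2 most abundant of each list, and the 2 genes nearest to each member, except that cell type and acute phase lists are given by their sums and called genes; a few others were named after their values were seen (the markers given, Cx3cr1, and the genes DESeq2 or an unadjusted p picked out). A count of 3 reads corresponds to 0.0561 to 0.152 CPM and covers counting error only. Figures were drawn with matplotlib 3.10.9.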

Additional observations from a re-analysis of the deposited data

Results flagged for a closer look

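Among the 60 genes of the lists checked in the 4 libraries labelled knockout, 3 had a library far from the other 3, by a gap to the nearest other library above 0.829 of the whole range; chance flags about 1 in 20 groups. Ackr1 had 3.89 CPM in knockout 1 and 2.11 to 2.22 CPM in the other 3, with a gap of 0.937 of the range. Ccr3 had 0.870 CPM in knockout 4 and 0.131 to 0.224 CPM in the others, with a gap of 0.874. The acute phase gene Hpx, which encodes hemopexin, had 7706 CPM in knockout 3 and 6626 to 6724 CPM in the others, with a gap of 0.909. None of the 9 chemokines had such a library.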

How the results depend on the processing

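The count of genes called by edgeR was 302, and became 1119 with DESeq2, 137 with limma-voom, 767 at an adjusted p of 0.1, 498 with library size alone, 9 against control 3 alone and 31 to 1310 when 1 library was left out. It was 429 without knockout 2 and 77, 55 and 67 without knockout 1, 3 and 4, and 36, 31 and 1310 without controls 1, 2 and 3. The replicate block gave 74 genes and 0 chemokines; same-numbered libraries deviated with correlations of -0.05, 0.07 and -0.14 and only 1 of 3 correlated best with its own number, so the numbers were not taken as pairs. Chemokines called higher were 0, and became 2 with DESeq2 and 0 to 3 when 1 library was left out. Chemokines called lower were 0, and became 2 with DESeq2, 2 at an adjusted p of 0.1, 1 (Ccl6) with library size alone and 0 to 3 when 1 library was left out. Against control 3 alone the log2 fold changes of Cxcl1 (0.39) and Cxcl9 (-0.34) reversed. The other alternatives kept every chemokine's direction. Cxcl13 rests on 1 read in knockout 3, and with 3 controls a single library decides several calls; the causes were not tested.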
